A study of Mus musculus with 8 samples.

Results

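Cells given estradiol were set directly against cells given dexamethasone, both for 2 hours, on all 45101 probe sets of an Affymetrix mouse array. The comparison rests on 4 of the 8 arrays of the series, the 2 titled as E2 and the 2 titled as Dex, and the 2 untreated arrays supply the level from which a rise or a fall is read. The groups are E2 (100 nM estradiol), Dex (100 nM dexamethasone), Dex+E2 (100 nM of each) and untreated, with 2 arrays each. No time is given in the labels for the untreated arrays, so whether they match the 2 hours of hormone is not known. All of them are the mouse mammary line 7438, which expresses a GFP-tagged glucocorticoid receptor and a cherry-tagged estrogen receptor from a tetracycline-regulated promoter, induced in every group, the untreated one included, by taking tetracycline away a day before the hormone. Cells were kept in charcoal-stripped serum, which is low in steroids. No label used here says whether the line is a single clone, or that replicate arrays came from separate cultures, so that the spread behind each p-value is that between arrays and could be technical. On 2 arrays, E2 replicate 2 and the first Dex+E2 replicate, the submitters' description mentions a receptor ChIP; they were grouped by title and treatment.

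Dexamethasone is a synthetic glucocorticoid that binds the glucocorticoid receptor, and estradiol is the main natural estrogen, which binds the estrogen receptors. Both receptors are ligand-activated transcription factors of the nuclear receptor family. As dimers they bind response elements of different sequence, and both can also act through other DNA-bound factors such as AP-1. In mammary cells glucocorticoids promote differentiation and restrain inflammatory genes, while estrogen drives growth.

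Replicate arrays correlated at 0.998 for E2, 0.998 for Dex, 0.996 for Dex+E2 and 0.998 for untreated cells. Dex+E2 replicate 2 stood furthest from the other arrays (mean correlation 0.995), and its replicate pair disagreed by more than 0.5 log2 units at 390 genes, against 95 for E2, 19 for Dex and 56 for untreated cells. As markers of the labelled mammary origin, the epithelial gene Cdh1, which encodes E-cadherin, read 3.26 in E2-treated, 3.25 in Dex-treated and 3.24 in untreated cells, and Krt14, a basal keratin, 7.99 in E2-treated, 7.99 in Dex-treated and 8.19 in untreated cells. The mesenchymal gene Vim, which encodes vimentin, read 13.93 in E2-treated, 13.95 in Dex-treated and 13.96 in untreated cells. Levels of different probe sets cannot be set against each other, so counts against the all-gene median are rough. Of the 15 epithelial genes measured 3 were above that median, against 12 of the 15 mesenchymal genes. Cdh1 was dim in every group named. The mean level of the epithelial list ran from 5.34 to 5.45 over the 8 arrays, and that of the mesenchymal list from 9.55 to 9.79. For the milk protein list it ran from 5.3 to 5.49, and for the immune cell list from 5.21 to 5.34.

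E2-treated and Dex-treated cells differed at 210 of 18194 genes (1.15%), of which 112 (0.616%) were lower and 98 (0.539%) higher with E2 (limma, Benjamini-Hochberg adjusted p under 0.05). At least a 2-fold difference was reached by 37 of the lower and 26 of the higher genes. The median difference was -0.82 log2 units over the lower genes and 0.70 over the higher ones, against -0.02 over all genes. The textbook glucocorticoid targets Rgs2 and Dusp1 were furthest below Dex, and Tmem86a, Bnc1, Ttpa and Zfp52 were among the 5 furthest on the other side. RNA was pooled from all cells of a culture, so fewer responding cells and less RNA per cell cannot be told apart here. At an unadjusted p under 0.05, 851 genes were higher and 744 lower. The count of 210 was 64 without Dex replicate 1, 74 without Dex replicate 2 and 115 without E2 replicate 2, and 64, 73 and 112 of those genes were among the 210. In all 16 other settings of the fit every one of the 210 genes that was tested kept its direction. This was largely fixed in advance. The prior, the replicate block, the level filter and the omission of other groups' arrays leave the difference of the means as it was. Leaving out 1 E2 or Dex array cannot turn a gene whose E2 and Dex arrays do not overlap.

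**Figure D1:**
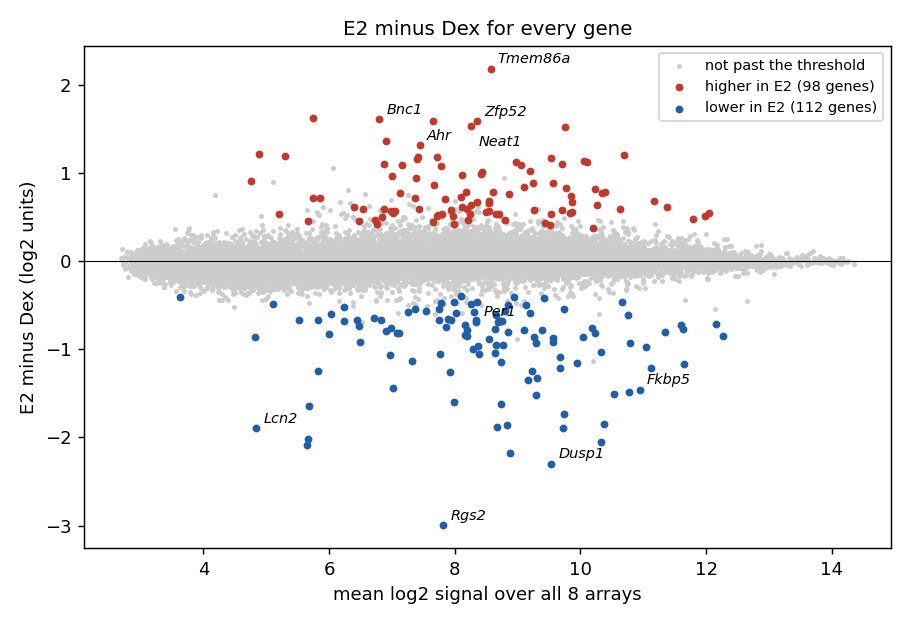
E2 minus Dex (log2 units, y axis) against the mean log2 signal over all 8 arrays (x axis), 1 point per gene. Of 18194 genes, the 98 higher in E2 are red and the 112 lower in E2 are blue, and the called genes are spread over most of the range of signal.

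The untreated arrays show with which hormone, if any, each gene was called. These contrasts share the E2 or the Dex arrays with the direct one, so the counts below sort the genes and are no further evidence of the difference. Against untreated cells, Dex changed 267 genes (1.47%), raising 157 (0.863%) and lowering 110 (0.605%), and E2 raised 19 (0.104%) and lowered 0 by the limma test with Benjamini-Hochberg adjustment. The E2 count rests on single arrays: it dropped to 2 when E2 replicate 2 or untreated replicate 2 was omitted, to 3 for untreated replicate 1 and to 11 for either Dex array. Omitting E2 replicate 1 gave 37 genes, and omitting a Dex+E2 array gave 34, of which 6 were lower. The sorting that follows depends on these calls. Of the 112 genes lower with E2 than with Dex, 93 had risen with Dex and were not called with E2, 7 had risen with both hormones, and 12 were called with neither. Of the 98 genes higher with E2, 57 had fallen with Dex and were not called with E2. Another 4 had risen with E2 and were not called with Dex. There was 1 that had fallen with Dex and risen with E2, and 36 were called with neither hormone against untreated cells. A gene not called with a hormone may still have moved with it.

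Of the 19 gene lists, glucocorticoid targets had the most genes called, though most of the 210 called genes were outside this list. Of 32 measured targets, 20 were lower with E2 than with Dex, 0 were higher and 12 did not pass. Over all genes 0.616% were lower. The list's median difference was -0.85 log2 units, against -0.02 over all genes. Against untreated cells 22 of the 32 rose with Dex and 6 with E2, and the list's medians were 0.19 for E2 minus untreated and 1.46 for Dex minus untreated. All lists and members were chosen with earlier results of these data known, and Suox and Sphk1 were placed on this list in that way. Without E2 replicate 2 the count lower with E2 was 17.

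Rgs2, which encodes a GTPase-activating protein that shuts off G-protein signals, read 6.22 and 6.96 in the E2 arrays, 9.4 and 9.77 in the Dex arrays and 6.22 and 6.54 in the untreated arrays. The E2 and untreated arrays overlapped and both Dex arrays lay far above them. The difference was -3.0 ± 0.223 log2 units, or 7.99-fold lower with E2 (limma, Benjamini-Hochberg adjusted p = 0.000169). Dusp1, a phosphatase that inactivates MAP kinases, had signals of 8.38 and 8.67 in the E2 arrays, 10.98 and 10.66 in the Dex arrays and 8.26 and 8.3 in the untreated arrays, a difference of -2.3 ± 0.142 (adjusted p = 8.18e-05). Both E2 arrays were slightly above both untreated arrays for Dusp1, by 0.24 on average, which did not pass. Fkbp5, a co-chaperone that lowers the hormone affinity of the glucocorticoid receptor, stood at 10.36 and 10.31 in the E2 arrays, 11.89 and 11.7 in the Dex arrays and 10.18 and 10.16 in the untreated arrays. It was 2.75-fold lower with E2 (adjusted p = 0.000169), and E2 minus untreated was 0.16.

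Tsc22d3, which encodes the glucocorticoid-induced leucine zipper, read 9.91 and 9.78 in the E2 arrays, 11.9 and 11.48 in the Dex arrays and 8.79 and 8.95 in the untreated arrays. Here the E2 arrays lay between the other groups with no overlap, -1.84 ± 0.234 from Dex (adjusted p = 0.00321, and 0.0627 without Dex replicate 1) and 0.97 from untreated, the last of which did not pass. Lcn2, lipocalin 2, an iron-siderophore binder secreted in inflammation, had dim signals of 4.02 and 4.26 in the E2 arrays, 5.98 and 6.1 in the Dex arrays and 4.14 and 3.94 in the untreated arrays, and was -1.9 ± 0.167 lower with E2 (adjusted p = 0.000342). Sgk1, a kinase that controls sodium transport and survival, was bright in all groups, with 12.12 and 11.92 in the E2 arrays, 12.93 and 12.8 in the Dex arrays and 11.52 and 11.59 in the untreated arrays and a difference of -0.85 ± 0.136 (adjusted p = 0.0135). That call was lost without E2 replicate 2 or either Dex array (adjusted p 0.0947 to 0.199). Other targets lower with E2, named after their values were seen, were Ampd3, an AMP deaminase, at -1.51, the metallothionein gene Mt1 at -1.49, the transcription factor gene Cebpd at -1.25, the transglutaminase gene Tgm2 at -1.16, the mRNA decay factor gene Zfp36 at -1.06, glutamine synthetase, Glul, at -0.86, and the NF-kappaB inhibitor gene Nfkbia at -0.72. Ddit4, which restrains mTOR, was -1.21, a call lost without E2 replicate 2 or either Dex array (adjusted p 0.1 to 0.208).

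**Figure D2:**
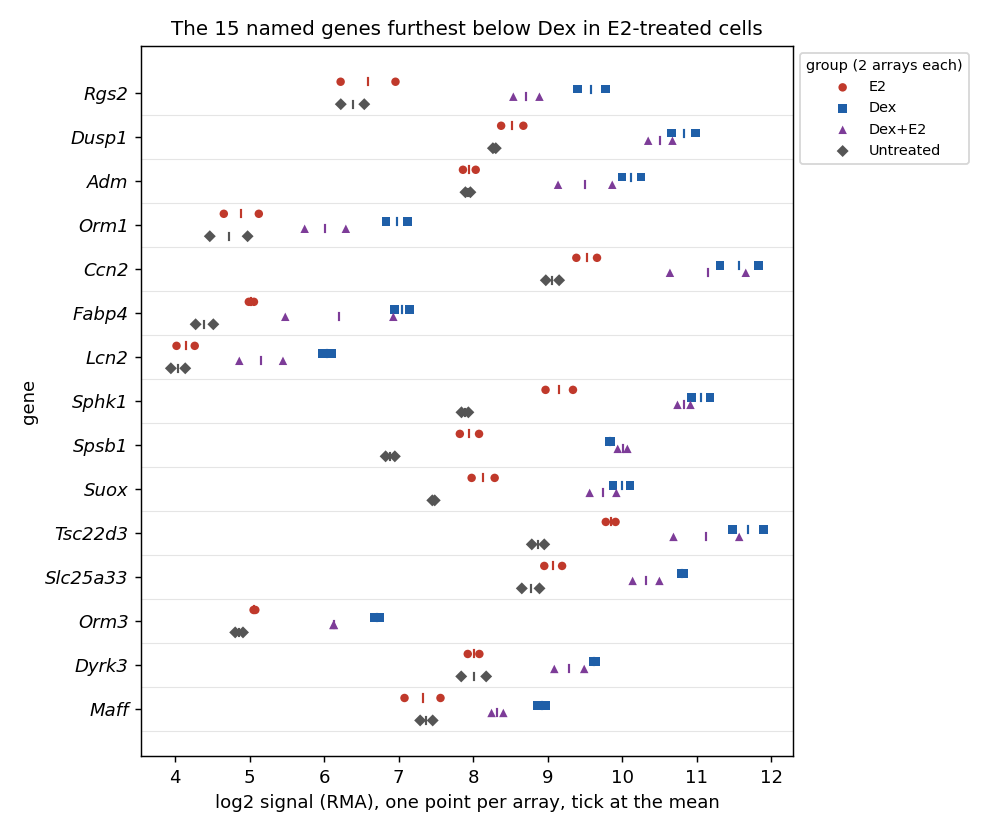
Log2 signal (x axis) on each array for the 15 named genes furthest below Dex in E2-treated cells, 1 point per array with a tick at the group mean, for E2, Dex, Dex+E2 and untreated cells. By the choice of genes, every Dex array lies above every E2 array, for Rgs2 at 9.4 and 9.77 against 6.22 and 6.96. The E2 and Dex arrays did not overlap, in either direction, in 42.2% of all genes. The Dex+E2 arrays lie near the Dex arrays or between them and E2.

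Genes outside the list of targets were also well below Dex. Adm, which encodes the vasodilator peptide adrenomedullin, had 8.03 and 7.86 in the E2 arrays, 10.25 and 9.99 in the Dex arrays and 7.96 and 7.9 in the untreated arrays, so that the E2 arrays fell close to the untreated ones. The difference was -2.17 ± 0.191 (adjusted p = 0.000342). The acute-phase genes Orm1 and Orm3, which encode alpha-1-acid glycoproteins, were -2.09 ± 0.22 and -1.64 ± 0.0811 from Dex (adjusted p = 0.00108 and 2.62e-05). Orm3 read 5.08 and 5.05 in the E2 arrays, 6.74 and 6.67 in the Dex arrays and 4.81 and 4.91 in the untreated arrays. These paralogs are similar in sequence, and whether their probe sets cross-hybridise was not tested. Ccn2, a matricellular growth factor, had 9.66 and 9.38 in the E2 arrays, 11.83 and 11.31 in the Dex arrays and 8.97 and 9.15 in the untreated arrays, -2.05 ± 0.274 from Dex (adjusted p = 0.00442, and 0.085 without Dex replicate 1). Fabp4, a fatty acid carrier best known from adipocytes and macrophages, read 4.99 and 5.06 in the E2 arrays, 7.14 and 6.95 in the Dex arrays and 4.28 and 4.51 in the untreated arrays. Its difference of -2.02 ± 0.337 (adjusted p = 0.0164) lost the call without any one of the E2 and Dex arrays (adjusted p 0.0958 to 0.219). The remaining endothelial or adipose markers measured were not called.

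Suox, sulfite oxidase, which is on the target list, was -1.86 ± 0.139 from Dex (adjusted p = 0.000169), with E2 at 0.67 above untreated without passing. Slc25a33, a mitochondrial pyrimidine nucleotide carrier, was -1.73 ± 0.133 (adjusted p = 0.000169), and Dyrk3, a kinase that dissolves stress granules, -1.62 ± 0.143 (adjusted p = 0.000342). Dyrk3 read 7.93 and 8.08 in the E2 arrays, 9.65 and 9.6 in the Dex arrays and 7.84 and 8.17 in the untreated arrays, so E2 and untreated arrays overlapped. The small Maf gene Maff, a partner of AP-1 family factors, was -1.6 ± 0.143 (adjusted p = 0.000372), and its E2 arrays also overlapped the untreated ones. Among growth brakes, Sesn1, a sestrin that restrains mTOR, was -0.78 ± 0.0878 from Dex (adjusted p = 0.00173), and the BMP target gene Id1, an inhibitor of basic helix-loop-helix factors, -0.92 ± 0.146 (adjusted p = 0.0129, lost without E2 replicate 1 or either Dex array). Nfil3, a repressor linked to the clock, was -1.16 ± 0.132 (adjusted p = 0.00176).

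Promoter sequences are shown for 3 of the 5 genes lower with E2 in which a glucocorticoid response element was found, the 3 that are on the glucocorticoid target list. RefSeq promoter windows (build GRCm38.p6, 250 bases before to 50 after the gene start) were matched for 85 of the 112 lower and 70 of the 98 higher genes. The motif GNACANNNTGTNC, which reads the same on both strands, occurred in 5 of the 85 (5.88%) and 0 of the 70, against 145 of 27025 genes with a window (0.537%). The 5 genes were Sgk1, Suox, Mt1, Slc10a6 and Fam107a. The longer form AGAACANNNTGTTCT, which contains the shorter, was found in Sgk1 alone of the called genes and in 3 of the 27025 (0.0111%). The 250 bases before the start are given 5′ to 3′ on the gene's strand, with the match in capitals, for Sgk1 (chr10:21993640-21993889, + strand), Suox (chr10:128673919-128674168, - strand) and Mt1 (chr8:94178839-94179088, + strand).
Sgk1: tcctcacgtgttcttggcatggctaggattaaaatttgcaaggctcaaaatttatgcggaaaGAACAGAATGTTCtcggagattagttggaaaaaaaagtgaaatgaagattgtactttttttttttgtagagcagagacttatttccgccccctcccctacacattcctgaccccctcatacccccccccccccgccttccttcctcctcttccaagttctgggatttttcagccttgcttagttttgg
Suox: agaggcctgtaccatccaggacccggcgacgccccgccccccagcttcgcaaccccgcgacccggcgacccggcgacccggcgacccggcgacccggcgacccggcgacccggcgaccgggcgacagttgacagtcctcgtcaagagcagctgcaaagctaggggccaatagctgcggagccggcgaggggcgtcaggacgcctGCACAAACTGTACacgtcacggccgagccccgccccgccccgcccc
Mt1: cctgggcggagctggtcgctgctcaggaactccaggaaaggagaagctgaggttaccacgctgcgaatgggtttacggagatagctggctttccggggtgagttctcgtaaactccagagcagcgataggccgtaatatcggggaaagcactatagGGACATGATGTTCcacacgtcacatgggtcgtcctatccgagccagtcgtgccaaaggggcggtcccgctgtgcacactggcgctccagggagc

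In Sgk1 the match ended 175 bases before the start, in Suox 33 and in Mt1 81. The estrogen response element GGTCANNNTGACC, searched on both strands and its own reverse complement, was in 0 of the 85 and 0 of the 70, against 20 of 27025 (0.074%). At that share sets of this size would rarely hold a match, so nothing is read from the 0. Single arms of the elements were found at similar shares. AGGTCA, on either strand, was in 14 of the 85 (16.5%) and 14 of the 70 (20%), against 18.1% of all windows' genes, and AGAACA in 13 (15.3%) and 14 (20%), against 21.3%. These are matches of letters within short windows and do not show binding. Slc10a6, which encodes a transporter of sulfated steroids, was -0.83 ± 0.141 from Dex (adjusted p = 0.0188), Fam107a -0.67 ± 0.107 (adjusted p = 0.0135) and Mt1 -1.49 ± 0.149 (adjusted p = 0.00075). All 3 were named after their values were seen, and each had risen with Dex and was not called with E2.

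The 19 genes that E2 raised over untreated cells divided into 3 sets in the direct comparison, although they were picked on the E2 arrays that it shares. For 7 of them the level was lower with E2 than with Dex, for 5 it was higher, and for 7 the direct difference did not pass. The first 7 also rose with Dex. Sphk1, sphingosine kinase 1, which makes the lipid messenger sphingosine-1-phosphate, read 8.97 and 9.34 in the E2 arrays, 11.18 and 10.93 in the Dex arrays and 7.84 and 7.94 in the untreated arrays. All 3 groups were apart, with E2 1.27 above untreated and -1.9 ± 0.131 from Dex (adjusted p = 0.000169). Spsb1, a substrate adaptor of ubiquitin ligases, had 7.82 and 8.08 in the E2 arrays, 9.85 and 9.82 in the Dex arrays and 6.82 and 6.95 in the untreated arrays, a step of 1.06 with E2 and a further gap of -1.89 ± 0.103 to Dex (adjusted p = 3.49e-05).

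Pdk4, a kinase that restrains pyruvate oxidation, was -1.13 ± 0.146 from Dex (adjusted p = 0.00364). Il6ra, the interleukin 6 receptor, was -1.07 ± 0.147 (adjusted p = 0.00516), and Errfi1, an inhibitor of the EGF receptor, -1.03 ± 0.105 (adjusted p = 0.000847). Pdk4 and Il6ra lost the call without either Dex array (adjusted p 0.0535 to 0.0838). Per1, a repressor of the circadian clock, came closest to Dex in this set. It read 8.62 and 8.5 in the E2 arrays, 9.32 and 9.17 in the Dex arrays and 6.72 and 6.45 in the untreated arrays, and the difference of -0.69 ± 0.127 (adjusted p = 0.0284) was lost without any one of the E2 and Dex arrays (adjusted p 0.0958 to 0.365). Cdkn1a, which encodes the cyclin-dependent kinase inhibitor p21, was -0.72 ± 0.139 (adjusted p = 0.0358), with 11.26 and 11.7 in the E2 arrays against 12.22 and 12.19 in the Dex arrays. That call was lost without E2 replicate 1, either Dex array or either untreated array (adjusted p 0.081 to 0.334), and with the E2 and Dex arrays fitted alone.

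For 7 genes that E2 raised, the E2 and Dex levels were not told apart, and the interval of the difference says how far apart they may be. Klf9, a Krüppel-like transcription factor, read 9.47 and 9.48 in the E2 arrays, 9.54 and 9.56 in the Dex arrays and 8.56 and 8.63 in the untreated arrays, with a difference of -0.08 and a 95% interval of -0.35 to 0.2 log2 units. Dnajb4, an Hsp40 co-chaperone, was at 0.15 (-0.05 to 0.36). Both intervals hold 0. Per2, a partner of Per1 in the clock, read 7.38 and 7.66 in the E2 arrays, 7.21 and 7.14 in the Dex arrays and 6.48 and 6.26 in the untreated arrays, and both E2 arrays were above both Dex arrays, by 0.35 (0.1 to 0.6, adjusted p = 0.33). The lipid droplet gene Plin4 was -0.45 (-0.68 to -0.22, adjusted p = 0.0979), the arrestin-domain gene Arrdc2 -0.5 (-0.91 to -0.09, adjusted p = 0.434) and the adaptor gene Sh3bp2 -0.33 (-0.57 to -0.08, adjusted p = 0.349). Micall1, an endocytic recycling factor, was 0.42 (0.23 to 0.61, adjusted p = 0.0563), just outside the threshold. The intervals of these 5 genes exclude 0, and they are not adjusted for the number of genes tested.

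The 5 genes that E2 raised and that were higher with E2 than with Dex were Tmem86a, Zfp52, Ttpa, Bnc1 and Pim1, and Dex raised 0 of them past the threshold. Tmem86a, an enzyme of ether lipid turnover, read 9.49 and 9.83 in the E2 arrays, 7.39 and 7.56 in the Dex arrays and 7.95 and 7.95 in the untreated arrays. The E2 arrays lay above and the Dex arrays below the untreated ones, and the difference of 2.18 ± 0.177 (4.54-fold, adjusted p = 0.000221) was the largest on this side, while Dex minus untreated was -0.47 and did not pass. Zfp52, a zinc finger gene, had 9.11 and 9.54 in the E2 arrays, 7.72 and 7.75 in the Dex arrays and 7.37 and 7.52 in the untreated arrays. Its difference was 1.59 ± 0.126 (adjusted p = 0.0002), and its second probe set gave 1.45. Ttpa, the vitamin E transfer protein, read 8.15 and 8.99 in the E2 arrays, 6.95 and 7.0 in the Dex arrays and 6.78 and 6.94 in the untreated arrays, with the E2 arrays spread over most of a log2 unit. The difference of 1.59 ± 0.247 (adjusted p = 0.0108) was lost without either Dex array (adjusted p 0.11 and 0.138).

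Bnc1, a zinc finger transcription factor of stratified epithelia, was called in both directions. It read 7.42 and 7.79 in the E2 arrays, 6.02 and 5.97 in the Dex arrays and 6.5 and 6.77 in the untreated arrays. The direct difference was 1.61 ± 0.131 (adjusted p = 0.000221). E2 was 0.97 above and Dex -0.64 from untreated, both past the threshold over genes (adjusted p = 0.0297 and 0.0417). Over all probe sets, both of these contrasts against untreated cells missed it (adjusted p = 0.0566 and 0.0661). Pim1, a survival kinase, had 8.64 and 8.74 in the E2 arrays, 7.65 and 7.77 in the Dex arrays and 8.05 and 8.1 in the untreated arrays and a difference of 0.98 ± 0.0892 (adjusted p = 0.000401). Dex minus untreated for Pim1 was -0.36 and did not pass.

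**Figure D3:**
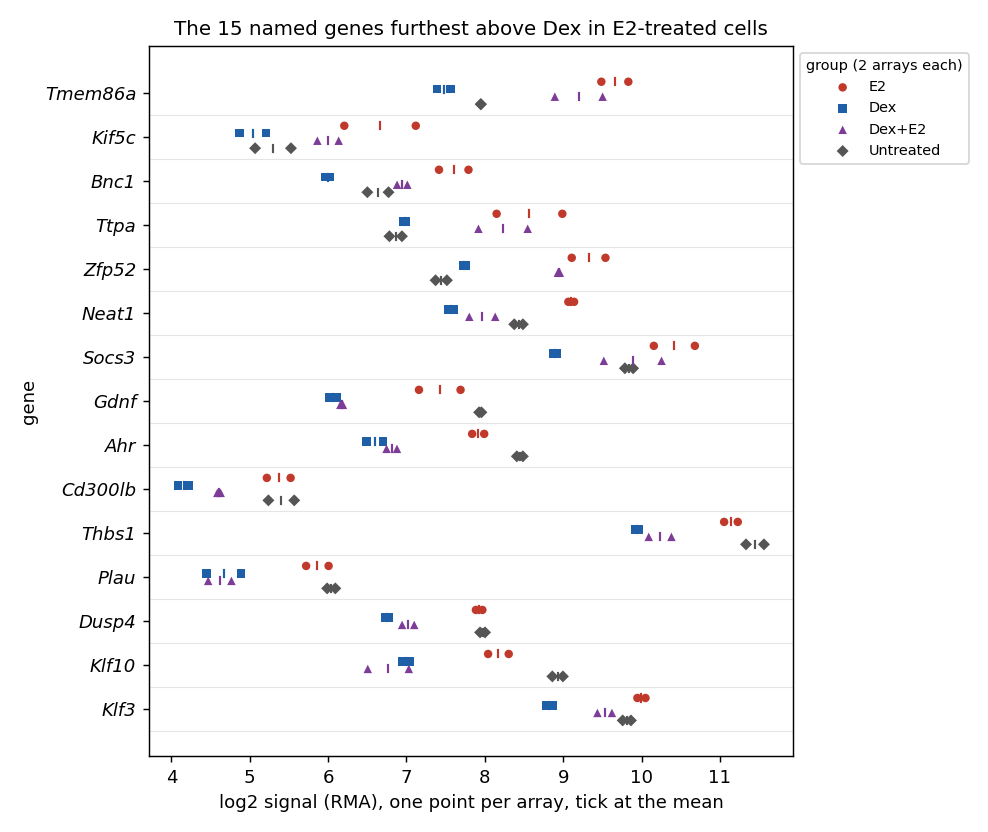
Log2 signal (x axis) on each array for the 15 named genes furthest above Dex in E2-treated cells, 1 point per array with a tick at the group mean, for E2, Dex, Dex+E2 and untreated cells. In Tmem86a, Ttpa and Zfp52 the E2 arrays lie above the untreated arrays, while in Gdnf, Ahr and Klf10 both hormones lie below them and Dex lies lower.

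Most genes higher with E2 were ones that Dex had lowered. Of these 57 genes the median was -0.86 for Dex minus untreated and -0.15 for E2 minus untreated, and in 40 of them the E2 mean was also below the untreated mean. Gdnf, a neurotrophic factor, read 7.69 and 7.16 in the E2 arrays, 6.02 and 6.11 in the Dex arrays and 7.93 and 7.96 in the untreated arrays. The groups did not overlap, with E2 -0.52 from untreated, which did not pass, and 1.36 ± 0.141 above Dex (adjusted p = 0.000972). Ahr, the aryl hydrocarbon receptor, had 7.99 and 7.84 in the E2 arrays, 6.49 and 6.7 in the Dex arrays and 8.49 and 8.41 in the untreated arrays, and was 1.32 ± 0.101 above Dex (adjusted p = 0.000169). Its second probe set showed no such gap (-0.09, adjusted p = 0.932 over all probe sets). The TGF-beta-inducible repressor gene Klf10 read 8.3 and 8.04 in the E2 arrays, 7.04 and 6.95 in the Dex arrays and 8.86 and 9.0 in the untreated arrays, 1.18 ± 0.154 above Dex (adjusted p = 0.00396, lost without either Dex array). E2 minus untreated for Klf10 was -0.76 (adjusted p = 0.209).

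In other genes of this set E2 and untreated cells were closer. Dusp4, a phosphatase of nuclear MAP kinases, read 7.89 and 7.97 in the E2 arrays, 6.77 and 6.73 in the Dex arrays and 7.94 and 8.0 in the untreated arrays, and the difference from Dex was 1.18 ± 0.0866 (adjusted p = 0.000169). Cd300lb, an immune receptor gene with a dim probe set, had 5.52 and 5.22 in the E2 arrays, 4.23 and 4.09 in the Dex arrays and 5.24 and 5.57 in the untreated arrays and a difference of 1.21 ± 0.129 (adjusted p = 0.00115). Plau, the urokinase-type plasminogen activator, was 1.19 ± 0.155 above Dex (adjusted p = 0.00367, and 0.051 without Dex replicate 1), and Thbs1, the matrix glycoprotein thrombospondin 1, 1.2 ± 0.118 (adjusted p = 0.000692). Klf3, a Krüppel-like repressor, read 10.05 and 9.95 in the E2 arrays, 8.86 and 8.79 in the Dex arrays and 9.86 and 9.76 in the untreated arrays. Its E2 arrays were above and its Dex arrays below the untreated ones, with a difference of 1.17 ± 0.0934 (adjusted p = 0.0002).

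Neat1, the nuclear long non-coding RNA that scaffolds paraspeckles, behaved in the same way on its brighter probe set. It read 9.07 and 9.14 in the E2 arrays, 7.54 and 7.6 in the Dex arrays and 8.38 and 8.49 in the untreated arrays, 1.53 ± 0.11 above Dex (adjusted p = 0.000169). Against untreated cells the fall with Dex passed (-0.86, adjusted p = 0.00207) and the 0.67 with E2 did not (adjusted p = 0.0842). The second Neat1 probe set gave -0.17 for E2 minus Dex (adjusted p = 0.769 over all probe sets), so the 2 probe sets disagree.

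The direct comparison also picked out 48 genes that neither hormone moved past the threshold against untreated cells. In 31 of the 36 higher with E2, both E2 arrays were above and both Dex arrays below both untreated arrays, an arrangement found in 1.97% of all genes, and in 8 of the 12 lower with E2 the order was the reverse (1.61% of all genes). The choice of genes with a large gap favours such an order. Socs3, a feedback inhibitor of cytokine signalling, read 10.16 and 10.68 in the E2 arrays, 8.87 and 8.92 in the Dex arrays and 9.79 and 9.89 in the untreated arrays, with a difference of 1.52 ± 0.215 (adjusted p = 0.00625). The call was lost without E2 replicate 2 or either Dex array (adjusted p 0.0513 to 0.0961), and all 3 Socs3 probe sets passed when tested separately. Vegfa, the vascular endothelial growth factor, had 9.56 and 9.76 in the E2 arrays and 8.73 and 8.55 in the Dex arrays. Its untreated arrays were at 9.08 and 9.02. The difference was 1.02 ± 0.118 (adjusted p = 0.0019), and the other Vegfa probe set gave 0.26 without passing. Bhlhe40, a clock-linked repressor, read 9.95 and 10.09 in the E2 arrays, 9.23 and 9.04 in the Dex arrays and 9.45 and 9.54 in the untreated arrays, 0.89 ± 0.109 above Dex (adjusted p = 0.00277, and 0.0535 without Dex replicate 2). Kif5c, a kinesin heavy chain, was 1.62 ± 0.257 (adjusted p = 0.0125), on 1 of its 4 probe sets, with E2 arrays at 6.21 and 7.12 against 4.87 and 5.21 for Dex. The call was lost without either Dex array (adjusted p 0.0722 and 0.194). With the mean of its probe sets it was 0.39 and lost the call (adjusted p = 0.22).

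Further genes of this kind, named after their values were seen, were Synpo, an actin-binding protein gene, at 1.16, Midn, whose product sends nuclear proteins to the proteasome, at 1.13, the planar polarity cadherin gene Celsr1 at 0.91, the stress sensor gene Ern1 at 0.77 and the nuclear receptor coactivator gene Pnrc1 at 0.77. Midn read 9.3 and 9.75 in the E2 arrays, 8.39 and 8.41 in the Dex arrays and 8.58 and 8.62 in the untreated arrays. On the lower side stood Tcim, at -0.96, and the ERK phosphatase gene Dusp6, at -0.74, with 7.55 and 7.55 in the E2 arrays, 8.34 and 8.25 in the Dex arrays and 7.74 and 7.99 in the untreated arrays. Follistatin, Fst, an activin binder, was -0.58 and the mitotic entry kinase gene Wee1 -0.55.

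The other gene lists differed less, and several moved both ways. Their counts stand beside shares of 0.539% higher and 0.616% lower with E2 over all genes. All 5 of 23 EGF, GDNF and related growth factor genes that passed were higher with E2: Gdnf, its relative Artn (1.11 ± 0.136), the EGF receptor ligand gene Hbegf (1.08 ± 0.117), Vegfa and, just inside the threshold, the platelet-derived growth factor gene Pdgfa (0.38, adjusted p = 0.0484), named after its value was seen. All of these but Vegfa and Pdgfa had fallen with Dex. The list's median difference was 0.08. Hbegf read 8.31 and 8.13 in the E2 arrays, 7.08 and 7.2 in the Dex arrays and 8.38 and 8.62 in the untreated arrays, with the E2 and untreated arrays well above the Dex ones. Artn lost the call without Dex replicate 1 (adjusted p = 0.0552).

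Of 23 TGF-beta, SRF and YAP targets, 5 were higher and 2 lower with E2 (median 0.15). Beside Thbs1, the higher ones were Ankrd1, a nuclear cofactor of muscle and wound responses, 1.13 ± 0.146 (adjusted p = 0.00364, and 0.0689 without Dex replicate 2), and, named after their values were seen, the LIM protein gene Ajuba (0.83) and the inhibitory Smad genes Smad6 (0.71) and Smad7 (0.54). The lower ones were Ccn2 and Id1. MAPK and growth factor feedback genes had 3 of 20 higher, Dusp4, Phlda1 (1.14 ± 0.0956) and, named after its value was seen, Dusp10 (0.47), and 3 lower, Dusp1, Errfi1 and Dusp6 (median 0.03). Phlda1 read 10.59 and 10.42 in the E2 arrays, 9.39 and 9.35 in the Dex arrays and 11.08 and 11.08 in the untreated arrays. Without E2 replicate 2, 4 genes of this list passed in all.

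Immediate early genes had 3 of 23 higher with E2, Klf10, the AP-1 subunit gene Fosl2 (1.11 ± 0.142) and the survival gene Ier3 (0.57 ± 0.1), and 1 lower, Maff (median 0.11). Ier3 lost the call without E2 replicate 1 or either Dex array (adjusted p 0.176 to 0.206), and Fosl2 without Dex replicate 2 (adjusted p = 0.066). Of 31 inflammatory genes, 2 were higher, Plau and the macrophage growth factor gene Csf1 (0.79 ± 0.109), and 0 lower, with a median of -0.01. Csf1 had 1 of its 4 probe sets past the threshold, and the call was lost with their mean (adjusted p = 0.0759) and without either Dex array (adjusted p 0.051 and 0.0956). Among 25 FoxO, growth brake and arrestin genes, 5 were lower, Ddit4, Sesn1, Cdkn1a and, named after their values were seen, Klf2 (-0.6) and Foxo3 (-0.59), and 2 higher, the insulin receptor substrate gene Irs1 (0.82 ± 0.118) and, likewise named afterwards, the antiproliferative gene Btg1 (0.54). Irs1 lost the call without either Dex array (adjusted p 0.0762 and 0.112). Without E2 replicate 2, 4 genes of this list passed in all. Stress genes had Gadd45a (0.99 ± 0.141) and Ddit3 (0.52 ± 0.0979) higher of 21. Gadd45a lost the call without E2 replicate 2 or Dex replicate 1 (adjusted p 0.0682 and 0.124), and Ddit3 without any one of the E2 and Dex arrays (adjusted p 0.136 to 0.377).

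Clock genes split, with Per1 and Nfil3 lower, Bhlhe40 higher and 17 of 20 not past the threshold (median 0.01). The lipid and fuel list had Fabp4 and Pdk4 lower and Tmem86a and Ttpa higher of 20, the last pair placed on it with earlier results known. Of 15 mesenchymal genes Snai2, a transcription factor of migrating cells, was higher (0.88 ± 0.107, adjusted p = 0.00272), having fallen with Dex. By limma 0 genes passed among those of the cell cycle (21 measured), sterol synthesis (15), epithelium (15), milk proteins (9) and immune cells (9).

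**Figure D4:**
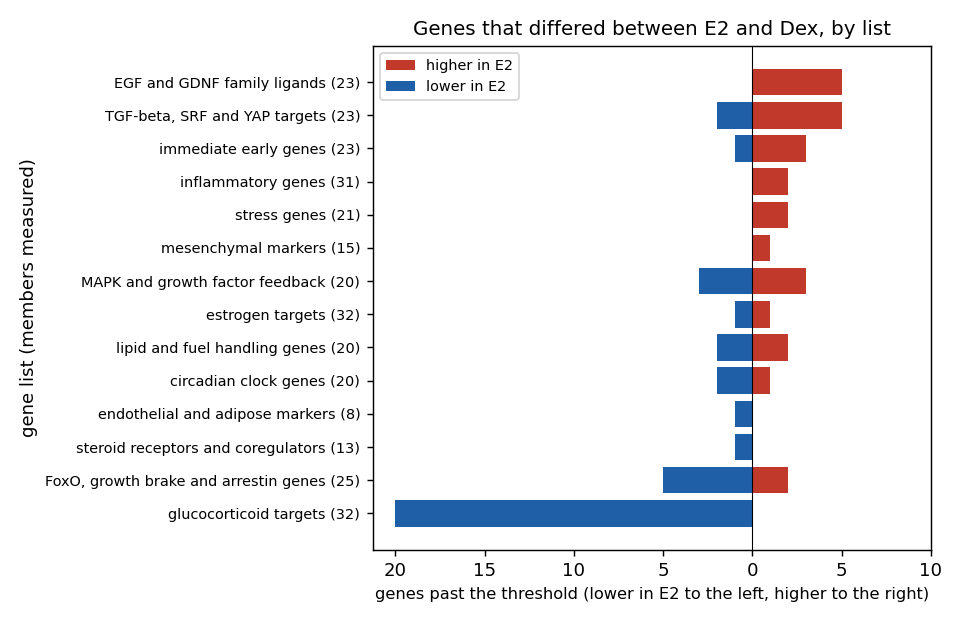
Number of genes past the threshold between E2 and Dex in each list with at least 1 (x axis, higher in E2 to the right in red, lower in E2 to the left in blue), with the number of members measured in brackets. Glucocorticoid targets have 20 lower and 0 higher. The list labelled EGF and GDNF family ligands, which also holds other growth factors such as Vegfa and Pdgfa, has 5 higher and 0 lower.

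Classical estrogen targets barely separated the hormones. Of 32 measured, 1 was higher with E2 and 1 lower, with a median of -0.03 log2 units. Over all genes 0.539% were higher and 0.616% lower. The higher one was Ier3, with 8.87 and 8.68 in the E2 arrays, 8.23 and 8.19 in the Dex arrays and 9.13 and 9.35 in the untreated arrays, which had fallen with Dex, and the lower one Zfp36l2, an mRNA decay factor, with 11.4 and 11.48 in the E2 arrays, 12.29 and 12.12 in the Dex arrays and 10.77 and 10.89 in the untreated arrays, which had risen with Dex. Neither passed for E2 against untreated cells, as for all 32 members. Zfp36l2 lost the call with the mean of its 3 probe sets (-0.37, adjusted p = 0.131) and without any one of the E2 and Dex arrays (adjusted p 0.0738 to 0.22), and Ier3 without 3 of those arrays, as given above. Greb1, an estrogen-induced growth gene of breast cells, read 5.83 and 5.91 in the E2 arrays, 5.67 and 5.95 in the Dex arrays and 5.76 and 5.91 in the untreated arrays, with a difference of 0.06 and a 95% interval of -0.18 to 0.29. Its other 3 probe sets gave -0.16, 0.01 and -0.11 for E2 minus Dex. Those 3 were above untreated with E2, by 0.47, 0.26 and 0.37, without passing, and by 0.76, 0.73 and 0.68 with Dex+E2, where all 3 passed over all probe sets (adjusted p 0.0063 to 0.024). With Dex 1 of them passed (0.62, adjusted p = 0.0201). Pgr, the progesterone receptor, was dim in all groups, at 4.47 and 4.18 in the E2 arrays, 4.54 and 4.35 in the Dex arrays and 4.34 and 4.32 in the untreated arrays, with a difference of -0.12 (-0.36 to 0.13).

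Neither receptor gene passed between E2 and Dex on its brightest probe set. Esr1, estrogen receptor alpha, read 6.66 and 7.16 in the E2 arrays, 6.98 and 7.18 in the Dex arrays and 7.05 and 6.92 in the untreated arrays, a difference of -0.17 (-0.52 to 0.18, adjusted p = 0.844). Nr3c1, the glucocorticoid receptor, had 9.95 and 10.0 in the E2 arrays, 9.41 and 9.56 in the Dex arrays and 9.96 and 9.95 in the untreated arrays, so that the Dex arrays were below all E2 and untreated ones, with a difference of 0.49 ± 0.118 that did not pass (adjusted p = 0.11). Of its 6 probe sets, 3 had differences of 0.45 to 0.50, and the others gave -0.01, -0.06 and 0.06. Over all probe sets 1 passed (0.50, adjusted p = 0.0265), and it was also lower with Dex than in untreated cells (-0.54, adjusted p = 0.0114). The probe set at 0.06 was 0.43 above untreated with Dex, without passing. Whether the probe sets read the tagged transgenes was not tested. Apart from Fkbp5, no other of the 13 receptor and coregulator genes measured was called.

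The Dex+E2 and untreated means share no array with the E2 minus Dex difference. The spread behind the calls was pooled over all 8 arrays, so counts past the threshold below are not independent of the choice of genes. The Dex+E2 cells differed from untreated cells at 265 genes (1.46%), with 146 higher (0.802%) and 119 lower (0.654%). Of the 112 genes lower with E2 than with Dex, 105 were above untreated in Dex+E2 cells and 80 rose past the threshold, with a median of 0.80. Of the 98 genes higher with E2, 73 were below untreated in Dex+E2 cells, 42 fell past the threshold and 6 rose, with a median of -0.33. Over all 18194 genes 9610 were above and 8583 below untreated, with a median of 0.01. Over all 18194 genes the E2 minus Dex and Dex+E2 minus untreated differences had a Pearson correlation of -0.461, a description across genes of the same 8 jointly normalised arrays.

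The 4 genes called as raised by E2 but not called with Dex were picked against the untreated arrays that Dex+E2 is set against here. Their values are thus a description. In Dex+E2 cells Tmem86a read 8.89 and 9.5, against 7.95 and 7.95 in untreated cells, a rise of 1.25. Zfp52 was at 8.93 and 8.96 in Dex+E2 cells, 1.5 above untreated, and Ttpa at 7.92 and 8.55, 1.37 above. These 3 passed against untreated cells, while Pim1, at 7.91 and 8.04, differed from untreated by -0.1 and did not. Of the 57 genes that Dex had lowered, the Dex+E2 mean lay nearer the Dex than the E2 mean in 50. Of the 93 that Dex had raised it lay nearer Dex in 83, while of the 36 called against untreated with neither hormone it lay nearer E2 in 24. Over all genes it lay nearer Dex in 11307 of 18194. The sorting used the E2, Dex and untreated arrays, so nothing further is read from these counts. With Dex+E2 replicate 1 alone those counts were 53, 84 and 17, and with replicate 2 alone 47, 63 and 25. Midn, for example, read 9.14 and 9.62 in Dex+E2 cells, and Synpo 7.57 and 7.93, against 7.75 and 8.24 with E2 and 6.78 and 6.87 with Dex.

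**Figure D5:**
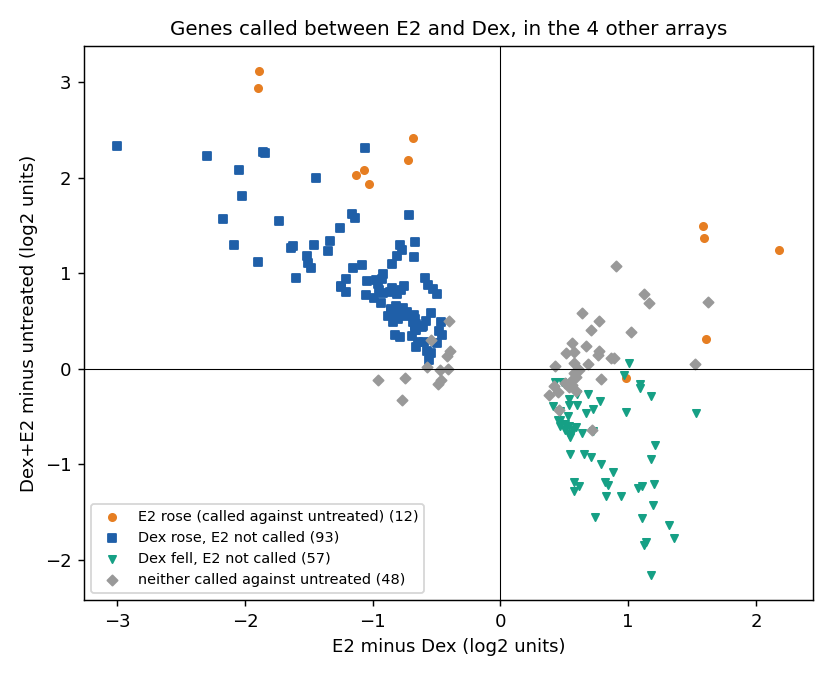
Dex+E2 minus untreated (log2 units, y axis) against E2 minus Dex (log2 units, x axis) for the 210 genes called between E2 and Dex, 1 point per gene, with the call against untreated cells as colour and shape. Of the 112 genes lower in E2 than in Dex, 105 lie above 0 on the y axis, and of the 98 higher ones 73 lie below it, while Tmem86a, Zfp52 and Ttpa are at the upper right. The colours rest on the untreated arrays that the y axis also subtracts.

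When every probe set was tested separately, 303 of 45101 (0.672%) differed, 128 higher (0.284%) and 175 lower (0.388%) with E2. Of these, 23 have no single gene symbol in the annotation used, 12 higher and 11 lower. Among them, probe set 1418250_at was -2.42, 1441799_at was -2.27 and 1422407_s_at was -1.58 log2 units from Dex. The first read 8.43 and 8.67 in the E2 arrays, 11.03 and 10.91 in the Dex arrays and 7.85 and 8.13 in the untreated arrays. Of the 56 named genes that passed, 28 have more than 1 probe set, and in 0 of these did another probe set pass in the opposite direction. In 6 of the 28 at least 1 other probe set differed in the opposite direction without passing. Beside Ahr and Neat1, 1 of 2 probe sets passed in Vegfa, Fosl2, Plau, Il6ra and Pim1. Their other probe sets gave 0.26, 0.006, 0.18, -0.24 and 0.49. In Tsc22d3, for example, 2 of 4 passed, and the differences ran from -1.88 to 0.08.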

How the data were processed

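RNA from 8 samples was hybridised to Affymetrix mouse arrays. The deposited table holds log2 values, made by the authors with RMA in Affymetrix Expression Console per the submitters' processing notes (version not given in the sources used here). RMA subtracts background, equalises the arrays and summarises probes, so a level cannot be set against that of another probe set, and differences of dim ones are compressed. No probe-level detection calls were used.

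Of 45101 probe sets, 34958 have 1 gene symbol in the platform annotation, 932 several and 9211 are not listed; 34754 matched RefSeq (GRCm38.p6) by gene number. A gene was represented by its brightest probe set, which gave 18194 genes. limma 3.58.1 (R 4.3.3) fitted 4 group means to all 8 arrays (4 residual and 6.2 prior degrees of freedom), with Benjamini-Hochberg adjustment over all genes and a threshold of 0.05. Adjusted p-values in the text are limma's, errors after ± are its standard errors, and n = 2 arrays a group. With 2 arrays against 2 an exact two-sided permutation test cannot go below p = 0.333. The number of arrays limits precision: the median standard error of E2 minus Dex was 0.0964.

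Named genes were the 15 largest differences each way without overlap, up to 4 from each of 19 lists, all genes that E2 raised, and 11 always given; 23 of 379 list genes had no matching probe set and are not analysed here. The members and lists were chosen with earlier results of these data known. On simulated arrays with 18194 genes, E2 minus Dex changes of 0.5, 1, -1 and 2 log2 units were recovered for 46, 94, 96 and 100% of 50 genes each, with 7 false calls. Alternatives were the arrays fitted, the prior, the probe set rule, a filter on level, the normalization, a replicate block and leaving out each array.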

Additional observations from a re-analysis of the deposited data

Results flagged for a closer look

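In 8 named genes past the threshold both E2 arrays lay above both untreated arrays and both Dex arrays below them. This order held in 44 of the 98 genes higher with E2 (44.9%) and in 1.97% of all genes. The choice of genes with a large gap favours it. For Socs3, Vegfa and Bhlhe40 neither contrast against untreated cells passed, so their signs rest on the order of the arrays. The difference itself was tested by limma's E2 minus Dex contrast, and the position against untreated cells was called for both hormones in Bnc1, for E2 in Tmem86a and Pim1, and for Dex in Neat1 and Klf3. Tmem86a was 2.18 log2 units higher with E2 than with Dex, from 1.71 for E2 and -0.47 for Dex against untreated cells. Bnc1 was 1.61 log2 units higher with E2 than with Dex, from 0.97 for E2 and -0.64 for Dex against untreated cells. Neat1 was 1.53 log2 units higher with E2 than with Dex, from 0.67 for E2 and -0.86 for Dex against untreated cells. Socs3 was 1.52 log2 units higher with E2 than with Dex, from 0.58 for E2 and -0.94 for Dex against untreated cells. Klf3 was 1.17 log2 units higher with E2 than with Dex, from 0.19 for E2 and -0.99 for Dex against untreated cells. Vegfa was 1.02 log2 units higher with E2 than with Dex, from 0.62 for E2 and -0.4 for Dex against untreated cells. Pim1 was 0.98 log2 units higher with E2 than with Dex, from 0.62 for E2 and -0.36 for Dex against untreated cells. Bhlhe40 was 0.89 log2 units higher with E2 than with Dex, from 0.53 for E2 and -0.36 for Dex against untreated cells.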

How the results depend on the processing

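The 210 genes between E2 and Dex became 106 at an adjusted p under 0.01 and 63 with at least a 2-fold difference, and 64 to 278 when 1 array was left out. The 303 probe sets became 71 to 404. The 19 genes of E2 against untreated became 34 without the Dex+E2 arrays, 35 with a trended and robust prior, and 2 to 37 when 1 array was left out. The 267 genes of Dex against untreated became 131 to 325, and the 265 of Dex+E2 against untreated 114 to 608. Under the replicate block the direct count was 199, of which 191 were among the 210, with 0 calls lost among the named genes. Whether the replicate numbers pair the samples is not settled: deviations correlated at 0.267 between E2 and Dex, 0.347 and 0.19 for these against untreated, but at -0.26 to -0.0705 with Dex+E2.

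Of the 56 named genes that passed, 31 stayed past the threshold whichever array was left out and 25 lost it at least once (adjusted p 0.051 to 0.377), 22 of them without Dex replicate 1. Averaging the probe sets of a gene ended the calls of Kif5c, Zfp36l2 and Csf1, and the E2 and Dex arrays alone that of Cdkn1a. Tested probe set by probe set, Cdkn1a (adjusted p = 0.0577) and Ddit3 (0.0535) also missed the threshold. The direction turned only in uncalled genes: Greb1 to -0.0816 without Dex replicate 1 and to -0.0498 with averaged probe sets, Pgr to 0.0247 without E2 replicate 2, and Esr1 ran from -0.417 without E2 replicate 2 to 0.0804 without E2 replicate 1. List counts without E2 replicate 2 or Dex+E2 replicate 2 were chosen after seeing the data: without the first, FoxO and growth brake genes passed at 4 instead of 7. The causes were not tested.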
